A study of Mus musculus with 4 samples.

Results

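The cells described here were those that the authors' deposited annotation of colonic organoids names Mesenchyme-proliferative. They were taken as every cell carrying that name in the cell table, which gave 113 of the 6155 cells of the series. The organoids were grown from the distal colon of 16-week-old wildtype mice and of Tnfr2-/- mice, which lack TNF receptor 2, and for each genotype 1 culture was kept untreated and 1 was given tumor necrosis factor (TNF) at 20 ng/ml after passage 5, starting on day 1 and stopping on day 6. On day 7 the organoids were broken into single cells, apoptotic cells were removed by annexin V, and 3′ libraries were made with the 10x Chromium system. Each of the 4 combinations of genotype (wildtype or Tnfr2-/-) and treatment (untreated or TNF) is thus a single library, a group cannot be told apart from its culture, and no p-value is given. The Tnfr2-/- mice lack the receptor in all tissues, and the cultures, made from digested fragments of colon, held mesenchymal as well as epithelial cells.

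Fibroblasts of the colon lie beneath the crypts, deposit the collagen matrix and send Wnt, BMP and growth factor signals to the epithelium. A fibroblast that enters the cell cycle first makes the enzymes and histones needed to copy its DNA in S phase and then, in G2 and M phase, the kinases, kinesins, tubulins and centromere proteins that separate the chromosomes. Contractile fibroblasts, or myofibroblasts, are known by smooth muscle actin (Acta2), transgelin (Tagln) and the tropomyosins and light chains that work with them.

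The class was found almost wholly in the untreated wildtype culture. Of its 113 cells, 111 were in that library, where they made up 7.76% (6.43 to 9.27) of the 1430 mesenchymal cells. There was 1 cell among 306 mesenchymal cells of the wildtype TNF library and 1 among 90 of the untreated Tnfr2-/- library. There was none among 122 in the TNF-treated Tnfr2-/- library, where a count of 0 allows a share of up to 2.46%. This distribution was not particular to the class. Mesenchyme-Ifitm1 had 892 of its 893 cells in the untreated wildtype library and Mesenchyme-generic 393 of 445, while Mesenchyme-Ptges had 34 of 497. Brackets here are exact 95% intervals, and all intervals and floors cover counting error only. All comparisons below were made inside the wildtype untreated library unless another is named.

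The cells of the class were deep. Their median was 35736 UMIs (17162 to 81507), against 22354.5 in the 892 Mesenchyme-Ifitm1 cells, 21807 in the 393 Mesenchyme-generic cells and 43626 in the 546 cells of the epithelial class Progenitor.1. The 34 Mesenchyme-Ptges cells of this library held a median of 5755 UMIs with 16.7% mitochondrial UMIs, against 2.79% in the proliferative class. Comparisons with Ptges cells therefore rest on 342542 UMIs, against 4143427 in the class itself, and 1 UMI was worth 2.92 CPM (counts scaled to a common total, as defined below) there and 0.241 CPM in the class. No cell of the class was called a doublet, and none carried a barcode found in a second library. Libraries shared 1 barcode in each of 3 pairs. The targeted gene Tnfrsf1b was at 9.76 CPM without and 14.0 CPM with TNF over all wildtype cells, and at 2.05 and 7.59 CPM over all Tnfr2-/- cells, so its 3′ reads were fewer but not absent in Tnfr2-/-, and in the class it was at 11.3 CPM (8.33 to 15.1).

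Levels are UMIs summed over the cells of a class and scaled to counts per 1000000 (CPM). Differences are log2(CPM + 1) in the class minus that in another class, which understates the change of low genes. Genes were compared where they reached 20 CPM in at least 1 of the classes, and a gene is called higher or lower at a difference of 2-fold or more. The authors clustered the cells on these same transcripts, so the differences between classes are descriptions.

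The 6 genes proposed as markers of the class did not all set it apart to the same extent. Cenpf, a centromere protein made in G2 and M phase, was at 475 CPM (455 to 497) in the class and at 4.59 in Ifitm1, 3.90 in generic, 2.92 in Ptges and 97.9 in Progenitor.1 cells. Tubb6, a beta-tubulin, was at 369 CPM (351 to 388) against 72.9, 51.0, 40.9 and 8.54 in the same order. Both stood above every other class compared.

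Acta2 was at 242 CPM (227 to 257) against 90.5 in Ifitm1, 14.7 in generic and 5.84 in Ptges cells, and Tagln was at 179 CPM (166 to 192) against 61.9, 8.14 and 2.92. Pitx1, a homeobox factor of the hindgut mesenchyme, was at 350 CPM (332 to 369) against 256, 53.3 and 61.3, and Adamdec1, a metalloprotease of gut stromal cells, was at 211 CPM (197 to 225) against 150, 8.14 and 155. These last 2 genes differed from the Ifitm1 class by 0.45 and 0.49 on the log2 scale, under the 2-fold limit. In Progenitor.1 cells the last 4 markers were at 0.109 to 0.217 CPM, or 3 to 6 UMIs each.

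**Figure D1:**
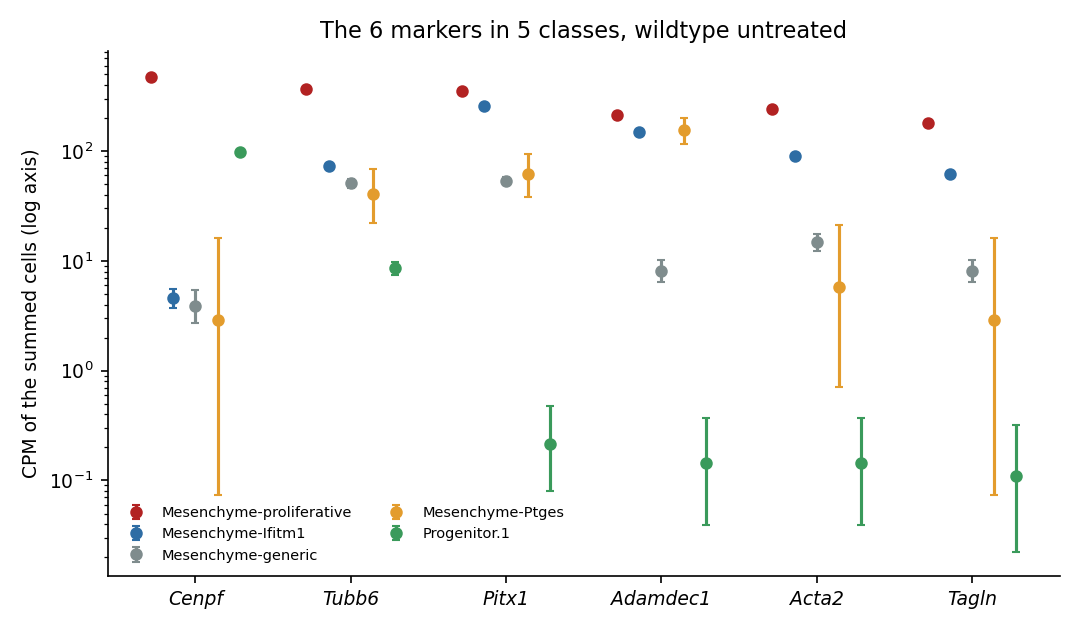
Level of the 6 markers (CPM of the summed cells, log axis) in 5 classes of the wildtype untreated library, with exact 95% Poisson intervals as bars. Cenpf and Tubb6 were at 475 and 369 CPM in Mesenchyme-proliferative cells, above all other classes, while for Pitx1 and Adamdec1 the Ifitm1 class, at 256 and 150 CPM, came close to it.

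Nearly every cell cycle gene compared was higher in the class. Against the Ifitm1 class, 500 of 6748 genes compared were higher (7.41%) and 79 were lower (1.17%). In the S phase list 38 of 40 genes compared were higher, with a median difference of 2.93, and in the G2 and M phase list 54 of 57 were higher, with a median of 4.99, while the median over all genes compared was 0.02. None of either list was lower. All 12 genes of a shorter mitotic list (Mki67, Top2a, Cenpf, Birc5, Ube2c, Cdk1, Ccnb1, Ccnb2, Cdc20, Tpx2, Nusap1 and Aurkb) were higher, with a median of 5.72.

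Against all 3 other mesenchymal classes at once, 425 of 7426 genes were higher (5.72%) and 42 were lower (0.566%). Among the 425 were 38 of 40 S phase genes and 53 of 57 G2 and M phase genes, and 334 of the 425 were in neither list. Histone genes whose messages are made for DNA replication supplied 12 of these 334, out of 15 compared. The linker histone Hist1h1b led the whole ranking, at 769 CPM (742 to 796) against 5.86 in Ifitm1, 7.24 in generic and 5.84 in Ptges cells. In a 3′ library primed on poly(A), histone messages are counted only as far as they carry such a tail.

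The messages of S phase were raised to unequal degrees. Rrm2, a subunit of the ribonucleotide reductase that makes DNA precursors, was at 173 CPM (160 to 186) against 2.53, 0.892 and 14.6 in Ifitm1, generic and Ptges cells. Clspn, which relays replication stress to the checkpoint, was at 155 CPM against 5.06 in Ifitm1 cells. The subunits Mcm2 and Mcm4 of the replicative helicase differed less, at 57.0 against 20.6 and at 147 against 55.3 CPM. Ubr7 and Casp8ap2 were the 2 members compared that stayed under 2-fold, at differences of 0.77 and 0.95.

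The G2 and M phase messages showed the widest gaps. Ube2c, the ubiquitin-conjugating enzyme of the anaphase-promoting complex, was at 530 CPM (508 to 552) against 4.73 in Ifitm1 and 1.89 in generic cells, with 0 UMIs in Ptges cells, which allows up to 8.76 CPM. Top2a, the topoisomerase that untangles sister chromatids, was at 614 CPM (590 to 638) against 10.9, 7.36 and 29.2. Mki67, which coats mitotic chromosomes, was at 546 CPM (523 to 569) against 6.84, 6.69 and 11.7. Prc1, which bundles microtubules of the central spindle, was at 398 CPM against 4.22 in Ifitm1 cells. The 3 members under 2-fold against the Ifitm1 class were Ctcf, Cbx5 and Psrc1, at 0.92, 0.91 and 0.80.

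Among genes in neither list, the 10 ranked highest against all 3 classes were Hist1h1b and 9 others, several of them known from mitosis. Aspm, a spindle pole protein, was at 104 CPM against 0.281 in Ifitm1 cells, Cep55, which works in the last step of cytokinesis, was at 51.2 against 0.234, and Sgo2a, which protects centromeric cohesion, was at 137 against 2.06. Mxd3, a partner of Max that is made in S phase, was at 79.6 CPM in the class, 0.984 in Ifitm1, 0.780 in generic and 4.81 in Progenitor.1 cells. The remaining 5 were Ska1, Melk, Hist1h3c, Fbxo5 and Pbk, at 49.7 to 113 CPM in the class and under 1 CPM in Ifitm1 cells.

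Regulators of cycle entry were unequal. Foxm1, the factor that drives G2 and M phase genes, was at 58.4 CPM against 2.30 in Ifitm1 cells, and Lin9, a subunit of the MuvB complex, was at 36.2 against 3.98. Ccne1, the cyclin of S phase entry, was at 94.8 CPM against 21.0, and the pocket protein Rbl1 was at 50.4 against 9.04. The D cyclins differed: Ccnd1 was at 130 CPM in both the class and the Ifitm1 cells, while Ccnd2 was at 69.5 in the class and at 125, 382 and 199 in Ifitm1, generic and Ptges cells. Of the 19 genes of this list compared with the Ifitm1 class, 9 were higher and none lower, with a median of 0.52.

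Inhibitors of the cyclin-dependent kinases were also unequal. Cdkn2c (p18) was at 99.9 CPM against 23.3, 20.3 and 14.6 in Ifitm1, generic and Ptges cells, and Cdkn2d (p19) was at 130 against 18.6, 9.36 and 8.76. Cdkn1a (p21) was at 815 CPM in the class, close to the 795 of the generic cells and above the 368 of the Ifitm1 and the 356 of the Ptges cells. Cdkn2a, which encodes p16 and ARF, was the opposite, at 116 CPM in the class and at 161, 567 and 409 in the others. After thinning to 5000 UMIs, Cdkn1a had a UMI in 71.2% of the class, 89.0% of generic and 52.0% of Ifitm1 cells. The richest thinned cell of the class held 88 Cdkn1a UMIs, against 18 in generic and 16 in Ifitm1 cells. Among cells of both classes with fewer than 3 mitotic UMIs of 5000 (13 cells of the class), the order against Ifitm1 cells turned for Cdkn1a and Cdkn2d, with differences of -0.87 and -0.21.

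**Figure D2:**
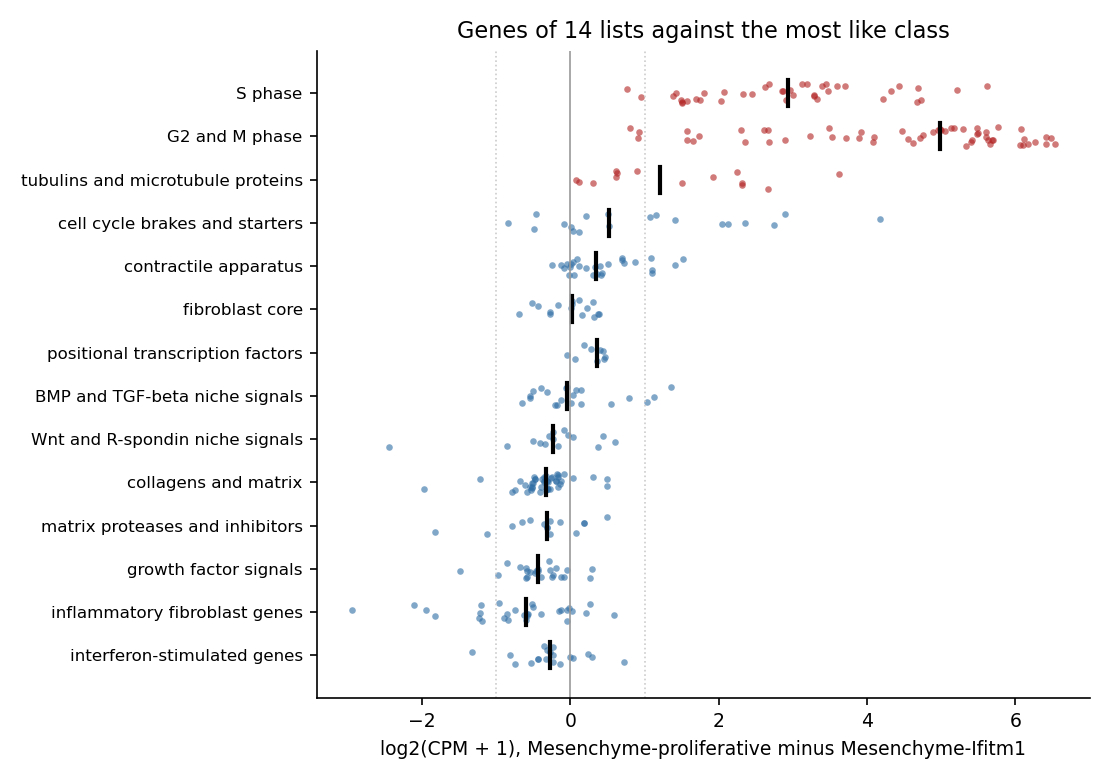
Difference of each gene compared (log2 of CPM + 1, Mesenchyme-proliferative minus Mesenchyme-Ifitm1, wildtype untreated) for 14 gene lists, with 1 point per gene, a black bar at the list's median and dotted lines at 2-fold. The G2 and M phase list lies farthest to the right with a median of 4.99, the S phase list follows with 2.93 and the tubulins with 1.20. The inflammatory list has the lowest median of the 14 lists shown, -0.59.

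The start sites of the mitotic genes give the sequence side of this group. G2 and M phase promoters are known for the cell cycle homology region TTTGAA, which the MuvB complex binds, and for CCAAT boxes, which NF-Y binds. Promoter sequences of RefSeq (GRCm38.p6) were matched by symbol for 50 of the 58 G2 and M phase genes, which gave 56 promoters. Annotated exons cover 31, 9 and 26 of the bases before the start in Ube2c, Cdc20 and Cdk1, and 0 in Top2a. The stretches below come from genes of the shorter mitotic list, and each stretch holds both motifs. They lie just before the annotated start, each is read 5′ to 3′ on the gene's strand, and capitals mark TTTGAA or CCAAT on either strand (TTCAAA and ATTGG on the other strand).
Ube2c, chr2:164769808-164769927, plus strand: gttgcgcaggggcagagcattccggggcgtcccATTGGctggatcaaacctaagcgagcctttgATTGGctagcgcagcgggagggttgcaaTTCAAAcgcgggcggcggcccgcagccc
Cdc20, chr4:118437344-118437463, minus strand: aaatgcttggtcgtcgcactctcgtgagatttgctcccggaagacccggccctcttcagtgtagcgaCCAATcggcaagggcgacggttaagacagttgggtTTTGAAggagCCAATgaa
Cdk1, chr10:69352913-69353032, minus strand: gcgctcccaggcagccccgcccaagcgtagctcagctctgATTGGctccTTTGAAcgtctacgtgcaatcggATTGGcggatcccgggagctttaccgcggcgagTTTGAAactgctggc
Top2a, chr11:99024190-99024309, minus strand: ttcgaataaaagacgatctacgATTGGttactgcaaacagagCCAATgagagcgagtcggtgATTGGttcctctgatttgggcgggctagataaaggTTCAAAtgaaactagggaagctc

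TTTGAA was found within 250 bases before the start in 22 of the 56 G2 and M phase promoters (39.3%), against 16.0% of all 32851 promoters and 9.98% of promoters of genes at 20 CPM or more in a mesenchymal class. CCAAT was found in 43 of 56 (76.8%), against 33.8% of all promoters. Both motifs stood together in 19 of 56 (33.9%), against 5.55% of all. In the S phase list TTTGAA was in 17.6% of 34 promoters, near the share of all promoters, and CCAAT was in 67.6%. The promoters of the genes higher than in all 3 classes held TTTGAA in 22.3% and CCAAT in 53.4%. A match describes these letters and is not a measured binding site.

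Counted cell by cell, nearly the whole class was in cycle. Each cell was thinned at random to 5000 UMIs, and a cell was called cycling at 3 or more UMIs of the 12 mitotic genes. By this count 98 of 111 cells of the class were cycling (88.3%, 80.8 to 93.6), and 11 cells lay at 2 or 3 UMIs, near the limit. The share was 3.26% (2.19 to 4.65) in Ifitm1 cells, 0.255% in generic cells and 39.9% (35.8 to 44.2) in Progenitor.1 cells. The limit is a range on a continuous count and defines no separate type, and free RNA from other cells was not subtracted.

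The cells of the class covered S phase as well as G2 and M phase. Per 5000 UMIs they held a median of 21 S phase UMIs (0 to 42) and 54 G2 and M phase UMIs (6 to 148), against 3 and 4 in Ifitm1 cells and 5 and 11 in Progenitor.1 cells. With the 95th percentile of Ifitm1 cells as a limit (8 S phase and 9 G2 and M phase UMIs), 81 of the 111 cells stood above both, 26 above the G2 and M phase limit alone, 4 above the S phase limit alone and 0 below both. Over the 111 cells, which share 1 library and 1 depth, the counts of both phases ran against each other (Spearman rho -0.50). Pcna, the sliding clamp of replication, ran with the rest of S phase (0.56, as a member of that list), and Cenpf with G2 and M phase (0.80, also as a member).

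**Figure D3:**
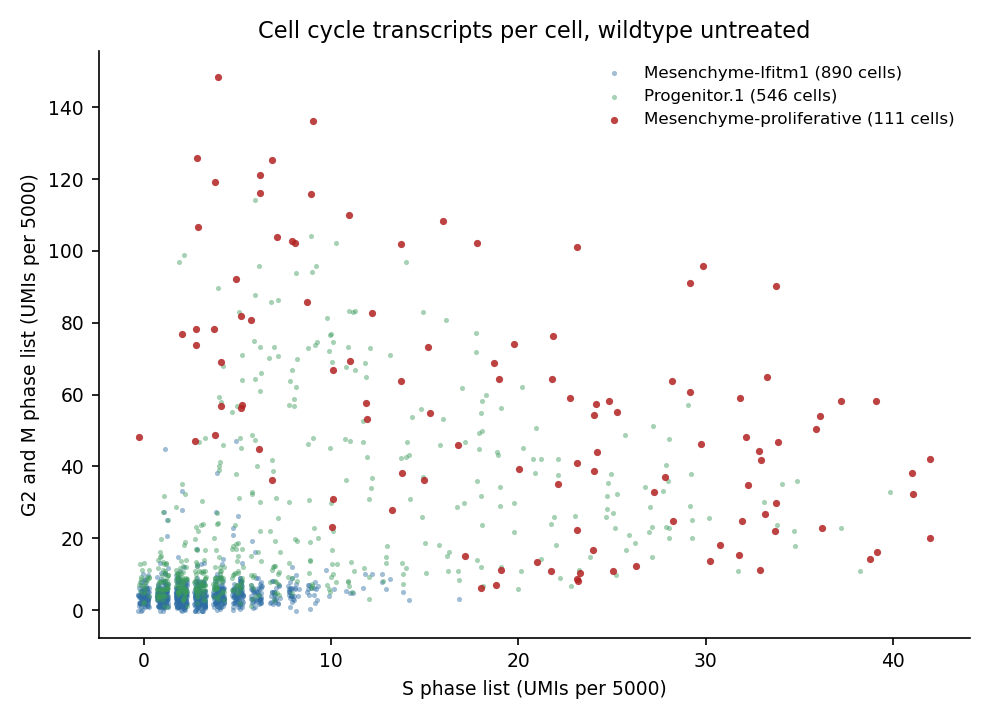
S phase UMIs (horizontal axis) and G2 and M phase UMIs (vertical axis) per 5000 UMIs in single cells of the wildtype untreated library, with 1 point per cell and a small jitter. The 111 Mesenchyme-proliferative cells spread from S phase counts of up to 42 to G2 and M phase counts of up to 148, while the 890 Ifitm1 cells lie near the origin with medians of 3 and 4.

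In the tubulin list, 7 genes were higher and the others did not reach 2-fold. Of 14 genes of tubulins and microtubule proteins compared with the Ifitm1 class none was lower, and the median was 1.20. Stmn1 (stathmin), which takes up free tubulin dimers, was at 1177 CPM (1144 to 1210) against 94.8, 46.8 and 52.5 in Ifitm1, generic and Ptges cells. Tubb5 was at 1297 against 339, 304 and 193, Tuba1b at 779 against 157, 124 and 61.3, and Tubb4b at 531 against 82.8, 47.3 and 61.3. The gamma-tubulin Tubg1, which nucleates microtubules, was at 71.4 against 24.5 in Ifitm1 cells. Tubulin genes are close paralogs, and how the counting treated reads that fit several of them is not given in the sources used here.

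Tubb6 was spread over more cells of the class than Acta2 or Tagln. Every one of the 111 cells had a UMI of Tubb6, the median cell was at 341 CPM against 51.6 in Ifitm1 cells, and the richest 11 cells held 24.1% of its UMIs. After thinning, 79.3% (70.5 to 86.4) of the class and 26.1% (23.2 to 29.1) of Ifitm1 cells had a UMI of Tubb6, and in Progenitor.1 cells the share was 15.2% before and 3.85% after thinning. Within the class, Tubb6 ran with the G2 and M phase count (Spearman rho 0.50) and not with the S phase count (-0.10), over 111 cells of 1 library. The neural and mesenchymal tubulins Tuba1a, Tubb2a and Tubb2b differed from Ifitm1 cells by less, at 0.90, 0.62 and 0.11.

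A few contractile genes were higher in the class, where most UMIs of Acta2 and Tagln lay in 11 of its cells (below). Against the Ifitm1 class 5 of 28 contractile genes compared were higher (Tagln 1.52, Acta2 1.41, Myl9 1.10, Csrp2 1.10 and Tpm2 1.09) and none was lower, with a median of 0.35 over the list. The other 23 did not reach 2-fold and lay between -0.25 for Lpp, a focal adhesion protein, and 0.87 for Smtn (smoothelin). Myh9, Vcl, Cald1, Cnn3 and Palld were within 0.08 of the Ifitm1 level.

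Acta2 was very uneven among the cells. A UMI of Acta2 was found in 43 of the 111 cells (38.7%), and after thinning in 18 (16.2%, 9.90 to 24.4), against 12.7% of Ifitm1 cells. In the Progenitor.1 class, which should lack the gene, 0.733% of cells had a UMI (0.183% after thinning), at a median depth of 43626 UMIs against 35736 in the class. The 11 cells with at least 3 Acta2 UMIs after thinning (9.91% of the class, 5.05 to 17.0) held 879 of its 1002 Acta2 UMIs (87.7%) and 678 of its 741 Tagln UMIs (91.5%). This limit and this group were chosen after the values were seen. Among Ifitm1 cells 34 of 890 (3.82%, 2.66 to 5.30) passed the same limit, and among generic cells 2 of 392.

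**Figure D4:**
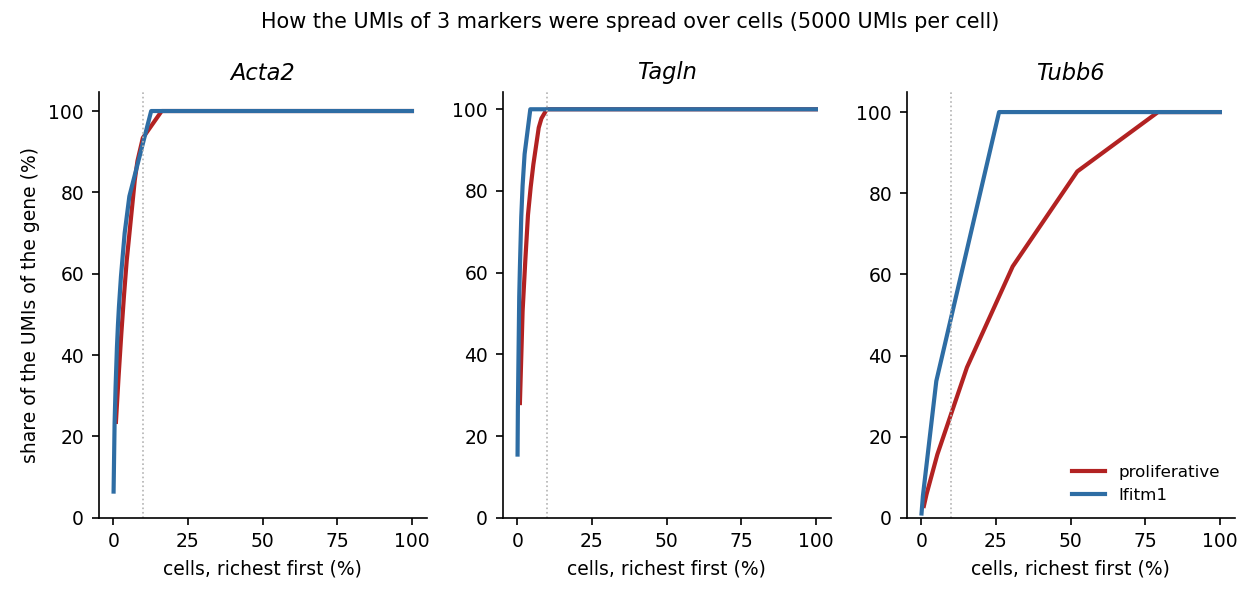
Share of the UMIs of Acta2, Tagln and Tubb6 (vertical axis, %) held by the cells ranked from richest to poorest in that gene (horizontal axis, % of cells) in Mesenchyme-proliferative and Mesenchyme-Ifitm1 cells, each cell thinned to 5000 UMIs. The dotted line stands at 10% of the cells, and without thinning the richest 11 cells of the proliferative class held 88.8% of Acta2 and 98.2% of Tagln, but 24.1% of Tubb6.

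Several messages were at high levels in the Acta2-rich cells of both classes. Acta2 was at 1712 CPM in the 11 cells and at 33.9 in the other 100, and in the Ifitm1 class at 1162 in the 34 cells and 32.7 in the other 856. Myl9, the regulatory light chain, was at 205 against 4.96 CPM in the class and at 177 against 4.50 in Ifitm1 cells. Timp3, an inhibitor of metalloproteases, was at 162 against 4.68 and at 275 against 7.36. Ctgf, a matrix-associated target of YAP and TEAD factors, was at 162 against 17.1 and at 94.3 against 10.4. Mgp (matrix Gla protein), Tpm2, Col8a1 and Ccnd1 were likewise higher in the rich cells of both classes. Tubb6 was at 393 CPM in the rich cells and 365 in the rest of the class, and at 134 and 69.6 in the Ifitm1 class.

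The Acta2-rich cells kept the cycling state of their class. Of the 11 in the proliferative class 9 were cycling by the mitotic count, and of the 34 in the Ifitm1 class 0 were, as the class names already set apart. Their levels of other genes differed too, with Fst at 181 CPM against 35.7, Tnfsf18, a ligand of the TNF family, at 50.6 against 11.0 and Thbs1 (thrombospondin 1) at 152 against 494 in the rich cells of the Ifitm1 class. Between the other 100 cells of the class and the other 856 Ifitm1 cells, Acta2 differed by 0.05 and Tagln by 0.17, which the limit on Acta2 itself largely sets. Myl9 differed by 0.12 there. Of 26 contractile genes compared between these cells 1 was higher and none lower, with a median of 0.04. Csrp2, a LIM domain protein, still differed by 1.11 there and Tpm2, which had a UMI in 80.2% of the class, by 0.68. Over the 111 cells Acta2 ran with neither phase count (Spearman rho 0.06 with S phase and -0.06 with G2 and M phase).

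Defining genes of smooth muscle were near 0. Myh11, the smooth muscle myosin, was at 2.41 CPM in the class, Actg2 at 0.483, Cnn1 at 0.724 and Des at 0 UMIs, which allows up to 0.724 CPM. The smooth muscle and pericyte list of 15 genes summed to 176 CPM in the class and 224 in Ifitm1 cells. Its 2 members that reached 20 CPM were Steap4, at 104 against 174, and Smtn, at 29.4 against 15.6. The markers of endothelial, glial, interstitial, mesothelial and immune cells, 18 genes, summed to 3.38 CPM in the class. The 16 epithelial markers summed to 126 CPM, against 478 in Ifitm1 and 16336 in Progenitor.1 cells.

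Promoters of the contractile list were matched for 29 of 34 genes, giving 35 promoters. The CArG box of serum response factor was in 14.3% of them, against 1.47% of all promoters, and with at least 5 of its 6 inner bases A or T in 20.0% against 8.59%, a looser form chosen after the strict one was counted. GGAATG of TEAD factors was in 37.1% against 12.6%, and TGANTCA of AP-1 in 14.3% against 6.75%. The G2 and M phase promoters held GGAATG in 14.3% and the looser CArG form in 14.3%, and the S phase promoters held that form in 14.7%. The promoters of the inflammatory fibroblast list held GGAATG in 28.6%, TGANTCA in 17.1% and the looser CArG form in 8.57%. GGAATG and TGANTCA were thus not particular to the contractile list. The sites below, from genes of the Acta2-rich cells, are shown with the looser CArG match in capitals. Before the annotated start, 217 bases are annotated as exon in Acta2 and 44 in Myl9. The marked Myl9 match lies outside the annotated exon bases. The last bases of the Myl9 stretch and the Acta2 site may lie in annotated exon rather than upstream of it.
Acta2, chr19:34255388-34255417, minus strand: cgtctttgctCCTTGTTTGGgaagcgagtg
Myl9, chr2:156775330-156775449, plus strand: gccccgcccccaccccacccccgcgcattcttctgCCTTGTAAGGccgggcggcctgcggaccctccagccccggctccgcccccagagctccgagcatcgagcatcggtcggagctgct

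With the S phase and the G2 and M phase lists left out, the class resembled Mesenchyme-Ifitm1 cells most. Cycle genes in neither list, such as Aspm and Cep55, stayed in. Over 7329 genes without the cycle lists, the summed profiles correlated at Pearson r of 0.894 with Ifitm1, 0.814 with generic, 0.756 with Ptges and 0.581 with Progenitor.1 cells. These r values are across genes, which are not independent replicates, and the Ptges sum was far shallower than the others. In 30 principal components of such genes, 94.0% of the 15 nearest mesenchymal cells of other classes were Ifitm1 cells, which made up 67.6% of the cells available. Of the 111 cells, 105 had most of these neighbours in the Ifitm1 class and 6 in the generic class.

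The fibroblast identity genes were at like levels in both classes. None of the 16 fibroblast core genes compared with the Ifitm1 class reached 2-fold, with a median of 0.02. Vim (vimentin) was at 2055 CPM against 1764, Pdgfra at 145 against 208, and Twist1 at 163 against 125. The 9 positional transcription factors compared had a median of 0.36 and none at 2-fold. Against generic cells, 1041 of 6800 genes were higher (15.3%) and 299 lower (4.40%), with a median of 0.259 over all genes, and among positional factors 6 of 11 were higher and 2 lower. Tbx2 was at 151 CPM against 125 in Ifitm1 and 23.1 in generic cells, and Hoxa11 at 43.0 against 32.3 and 12.9. Tcf21 and Foxf2, factors of visceral mesenchyme, were at 120 and 54.5 CPM, against 104 and 48.0 in Ifitm1 and 14.6 and 11.0 in generic cells. They belong to the list of mesenchymal transcription factors, in which 5 of 26 were higher than in generic cells and 7 lower, with a median of -0.34.

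The comparison with generic cells depended on the scaling. With TMM factors 753 genes were higher and 458 lower, so that 62.2% of the genes called were higher in place of 77.7%, and with median-of-ratios factors 793 were higher and 412 lower (65.8%). TMM moved all differences by -0.22 and median-of-ratios factors by -0.17.

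Signals to the epithelium were close to those of Ifitm1 cells, with single exceptions. None of 15 Wnt and R-spondin genes compared was higher and 1 was lower, with a median of -0.23. Wnt5a was at 554 CPM against 651 in Ifitm1, 126 in generic and 739 in Ptges cells, and the Wnt inhibitor Dkk2 at 123 against 164, 12.4 and 90.5. The R-spondin Rspo1, which amplifies Wnt signals in crypts, was the exception, at 5.55 CPM (3.52 to 8.33) against 34.8 in Ifitm1 cells. Bmp4, which opposes stemness, was at 501 against 456 in Ifitm1 and 70.5 in generic cells.

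In the BMP and TGF-beta list 3 of 21 genes were higher than in Ifitm1 cells. They were Gdf15 (1.36), a stress-induced ligand, Fst (1.13), which binds activin, and Ltbp2 (1.03), a matrix-bound binding protein. The Fst difference lay in the 11 Acta2-rich cells, with 93 UMIs (181 CPM) against 53 UMIs (14.6 CPM) in the other 100. Without the Acta2-rich cells of both classes, Fst differed from Ifitm1 cells by 0.01. Among growth factor genes none of 24 was higher, and the 1 that was lower was Igfbp5, a binding protein of insulin-like growth factors, at 271 CPM against 765 in Ifitm1 and 58.1 in generic cells. Their median was -0.44, beside 0.02 over all genes, and 2 of the 24 lay above 0.

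Most collagen and matrix genes differed by less than 2-fold. Of 46 collagen and matrix genes compared with Ifitm1 cells none was higher and 2 were lower, with a median of -0.33 beside 0.02 over all genes. Col1a1 was at 1689 CPM (1650 to 1729) against 2582, Col3a1 at 3456 against 4492 and Postn, a matricellular protein, at 856 against 1369. The 2 lower genes were Mfap4, a microfibril protein, at 18.6 against 75.6, and Col15a1 at 13.5 against 32.7.

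Against the Ifitm1 class, inflammatory fibroblast genes were the list with the most members lower by count. Of 30 compared 8 were lower and none higher, with a median of -0.59, and against all 3 classes 5 of 34 were lower. Epithelial markers were fewer, but all 5 compared with the Ifitm1 class were lower, with a median of -1.89. The neutrophil-attracting chemokine Cxcl5 was the gene ranked lowest of all against the 3 classes, at 76.5 CPM (68.3 to 85.4) against 596 in Ifitm1, 357 in generic and 423 in Ptges cells. The eosinophil-attracting Ccl11 was at 111 against 481, 342 and 219, and the monocyte-attracting Ccl7 at 111 against 253, 276 and 464. Saa3, an acute phase protein, was at 3796 against 8882, 32011 and 8198.

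Not every inflammatory message was low. Ccl2, which attracts monocytes, was at 742 CPM against 753 in Ifitm1 and 726 in generic cells, Ptges, the prostaglandin E synthase, at 65.9 against 65.0 and 65.7, and Tnfrsf1a, the receptor 1 of TNF, at 171 against 176 and 143. Of the interferon-stimulated list 1 of 19 was lower than in Ifitm1 cells, with a median of -0.28, and Ifitm1 itself was at 1045 CPM against 1229 in the class named after it and 130 in generic cells.

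The other genes ranked lowest against all 3 classes had mixed roles. Tlr2, a receptor for bacterial lipoproteins, was at 6.27 CPM against 30.8, 78.6 and 78.8 in Ifitm1, generic and Ptges cells. Apoe, a lipid carrier, was at 196 against 722, 1341 and 791, the collagenase Mmp13 at 20.8 against 76.2, 115 and 84.7, and the complement regulator Cd55 at 7.48 against 28.5, 50.7 and 29.2. Slc7a11, the cystine transporter, was at 8.45 against 31.4, 83.9 and 126. Fibin, Trib3, Fam84a and Gm16685 completed the 10, at 1.21 to 9.17 CPM in the class.

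Against Ptges cells of the same library, 1412 of 7148 genes were higher (19.8%) and 693 lower (9.70%). Inflammatory genes were lower there in 19 of 32 compared, with a median of -1.21, and collagens in 19 of 48, with a median of -0.82, beside a median of 0.224 over all genes. Contractile genes were higher in 10 of 28 and lower in 1. With the 304 deeper Ptges cells of the wildtype TNF library in their place, 901 genes were higher and 446 lower, with a median of 0.12 over all genes. Inflammatory genes were then lower in 20 of 33 and higher in 5, with a median of -1.40, but collagen and matrix genes were lower in 6 of 45 and higher in 16, with a median of 0.53, and contractile genes were higher in 6 of 28. The direction turned for Igfbp5 (6.13), Apoe (3.70) and Cd55 (1.24), which had been lower by 2-fold or more, and for Ccl11 (3.28), Col1a1 (1.73) and Wnt5a (1.43), which had been lower by less. That comparison crosses libraries and treatments.

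Cycling epithelial cells of the same library served as a second reference. Against the whole Progenitor.1 class, 2096 of 7313 genes were higher (28.7%) and 1047 lower (14.3%), or 66.7% higher among those called, with a median of 0.298 over all genes. With TMM factors 1493 were higher and 1637 lower (47.7% higher), and with median-of-ratios factors 1552 and 1574 (49.6%), since these scalings moved all differences by -0.40 and -0.36. The genes ranked highest were those of any fibroblast, led by Sparc (3454 against 2.35 CPM), Vim (2055 against 1.09) and Col1a2 (2807 against 2.35). The lowest were epithelial, led by the glutathione peroxidase Gpx2 (4.10 against 1500), Tspan1 (1.21 against 586) and Oit1 (0.241 against 327), with the adhesion molecule Epcam at 8.93 against 2206.

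Only a part of Progenitor.1 was in cycle, so the 98 cycling cells of the class were also set against its 218 cycling cells. Of 7252 genes 1965 were higher (27.1%) and 1020 lower (14.1%), with a median of 0.27. The G2 and M phase list was then higher in 21 of 57 genes and lower in 0, with a median of 0.82, and the S phase list was higher in 8 of 41 and lower in 3, with a median of 0.61. Per 5000 UMIs the cycling fibroblasts held a median of 57.0 G2 and M phase UMIs against 39.5, and 19.0 S phase UMIs against 10.0. Ube2c (592 against 454 CPM), Ccna2 (151 against 138) and Hmgb2 (693 against 907) were close, and Top2a was at 667 against 295.

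The list of tubulins and microtubule proteins was higher in 6 of 14 genes and lower in 1. Tubb6 was at 395 CPM against 13.7 and Tuba1a at 564 against 7.03, while Tubb4b was at 581 against 1009 and Tuba4a at 51.6 against 169. Of the D cyclins, Ccnd3 was at 133 against 33.2 and Ccnd2 at 68.3 against 318. The kinase inhibitors Cdkn2c, at 108 against 16.1, and Cdkn2d, at 144 against 16.2, were higher in the cycling fibroblasts, as were Cdkn1a at 887 against 194 and Cdkn2a at 120 against 28.6. Myc, a driver of growth in crypt cells, was at 3.24 against 34.9, and Cdca7, a target of it, at 10.8 against 59.7. Mxd3 was at 88.8 against 9.96 and the microtubule regulator Ckap2 at 179 against 47.4.

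Cycling fibroblasts were not limited to the class or to untreated wildtype cells. Of mesenchymal cells that could be thinned, 129 of 1417 were cycling in the wildtype untreated library (9.10%, 7.66 to 10.7), 59 of 298 in wildtype TNF (19.8%, 15.4 to 24.8), 4 of 86 in Tnfr2-/- untreated (4.65%, 1.28 to 11.5) and 3 of 120 in Tnfr2-/- TNF (2.50%, 0.519 to 7.13). In the untreated wildtype 98 of the 129 carried the proliferative name and 29 the Ifitm1 name. In the wildtype TNF library 57 of the 59 carried the Ptges name and 1 the proliferative name. With 1 culture per group these shares are values of the cultures.

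The 57 cycling Ptges cells of the wildtype TNF library allowed the same contrast in cells that the class did not hold. They were set against the 239 other Ptges cells of that library. Of 6591 genes 382 were higher (5.80%) and 126 lower (1.91%). Without the 12 mitotic genes that defined the groups, the G2 and M phase list was higher in 42 of 45 genes and the S phase list in 31 of 36, with medians of 4.05 and 2.12.

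Some tubulin genes were higher in these cycling cells as well. Tubb6 was at 282 CPM (263 to 302) in cycling and at 97.0 (91.4 to 103) in other Ptges cells, Stmn1 at 431 against 46.1, Tubb4b at 448 against 108 and Tuba1b at 725 against 216, and 6 of 15 genes of this list were higher. Acta2 was at 38.0 (31.3 to 45.6) against 48.2 (44.2 to 52.3) and Tagln at 34.3 against 42.1, and 1 of 26 contractile genes reached 2-fold, the non-muscle myosin Myh10 at 1.04, while 19 of 26 lay above 0, with a median of 0.25 beside 0.11 over all genes. Pitx1 was higher in the cycling cells, at 102 against 47.5.

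The lower genes were partly those of the class. Inflammatory genes were lower in 10 of 32 and higher in 0, with a median of -0.47, among them Saa3 (5283 against 14227 CPM), Lcn2 (546 against 1896), Ccl8 (116 against 344) and Cxcl5 (70.9 against 200). Ccl2, at 9624 against 10012, again did not differ by 2-fold. Of the genes ranked lowest in the class, Mmp13 (-1.45), Slc7a11 (-1.32), Tlr2 (-1.12) and Fibin (-2.66) were lower here as well. Cdkn2a was at 168 against 487 and Ccnd2 at 128 against 323, while Cdkn2c was at 24.6 against 3.28 and Cdkn2d at 51.6 against 7.51. Collagens were lower in 1 of 44, proteases in 5 of 15 (median -0.56) and growth factor genes in 5 of 23 (median -0.51). The last 2 medians were thus no higher than that of the inflammatory genes.

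**Figure D5:**
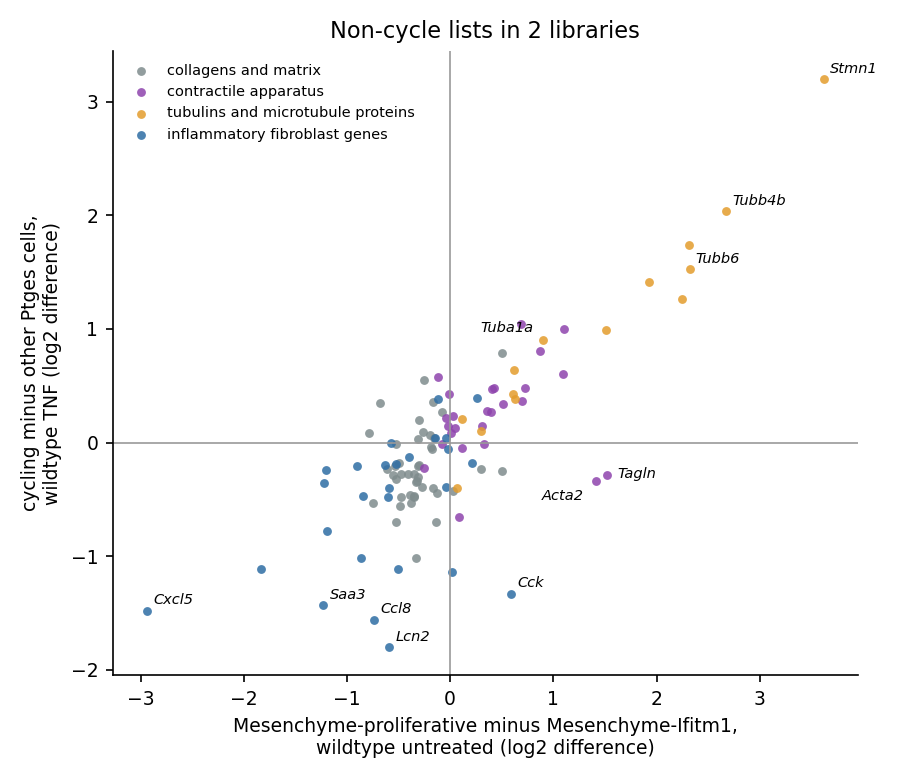
Genes of 4 lists other than the S phase and the G2 and M phase lists, with 1 point per gene. The horizontal axis is the log2 difference of Mesenchyme-proliferative minus Mesenchyme-Ifitm1 cells of the wildtype untreated library. The vertical axis is the log2 difference of cycling minus other Ptges cells of the wildtype TNF library. The tubulin list shares Tubb4b with the G2 and M phase list. Several tubulin genes lie high on both axes (Tubb6 at 2.32 and 1.53), Cxcl5 and Saa3 lie low on both, and Acta2 and Tagln are higher on the horizontal axis alone, with -0.34 and -0.29 on the vertical one.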

How the data were processed

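Single-cell UMI counts (whole numbers per gene and cell) were deposited by the authors with a cell table and a gene table. Per the submitters' processing notes they come from Cell Ranger 5.0.0 on mm10. Per the methods, cells were clustered in monocle3 and the classes are the authors'. The sequencer is given differently by the labels (a HiSeq model) and the methods (a NovaSeq). Counts were not corrected for free RNA.

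The counts of all cells in a class were added up and scaled to CPM, with exact Poisson intervals (95%). Cells were thinned to 5000 UMIs with a fixed seed. Genes needed 20 CPM in a class compared, and calls needed 2-fold on log2(CPM + 1). Doublets were scored with scrublet in scanpy 1.11.5 at an expected rate of 0.06, which marked 36, 0, 4 and 3 cells in the 4 libraries (at most 1.39%). Scaling alternatives came from edgeR 4.0.16 in R 4.3.3, other steps from Python 3.11.15, and scripts were tested on simulated data. Motifs were searched on both strands of RefSeq promoters. The genes named were the 6 markers, members of the 22 lists, and the 10 highest and 10 lowest against all 3 mesenchymal classes (with and without the cycle lists) and against Progenitor.1, while the genes of Acta2-rich cells were chosen after their values were seen. The class, the lists and the markers were chosen with earlier results of these data known. Cyr61, Ctgf, Mkl1 and Mkl2 are listed under these older symbols. Hoxd4 stood on more than 1 line of the gene table, and the first was used.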

Additional observations from a re-analysis of the deposited data

How the results depend on the processing

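No paired analysis was possible because each group had 1 library. Of 2747 alternative values for 244 single-gene results, 2168 stayed within the counting interval, 574 moved beyond it and 5 reversed. Of 135 values for 19 counts and shares, 91 stayed and 44 moved. Values were counted as reversed where a difference of 2-fold or more changed sign, and 14 other values, from differences under 2-fold, changed sign too. Of these 14, those that then passed 2-fold were Cdkn1a against generic cells with fewer than 3 mitotic UMIs (-1.97) and Ccl11 (3.28), Col1a1 (1.73) and Wnt5a (1.43) against the Ptges cells of the wildtype TNF library. Reversed were Cdkn1a (-0.87) and Cdkn2d (-0.21) against Ifitm1 cells with fewer than 3 mitotic UMIs, and, with the Ptges cells of the wildtype TNF library, Igfbp5 (6.13), Apoe (3.70) and Cd55 (1.24). The cause was not tested.

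Counts of called genes moved as follows. With a pseudocount of 10 CPM, 44, 199 and 423 genes were lower than in Ifitm1, generic and Ptges cells and 14 than in all 3. With no expression minimum, 828 were higher and 384 lower against Ifitm1, 1712 and 898 against generic, 2932 and 1869 against Ptges and 3813 and 2122 against Progenitor.1 cells, and 93 were lower than in all 3. With a minimum of 50 CPM, where fewer genes were compared, the counts were 284 and 41, 615 and 174, 868 and 339, 1211 and 575, and 263 and 24 against all 3. With TMM factors 458 were lower than in generic and 1637 than in Progenitor.1 cells, and with median-of-ratios factors 1574 than in Progenitor.1 cells. The mean of each cell's CPM gave 2294 and 1058 against Ptges cells. Thinned cells gave 213 lower against Ifitm1, 2219 and 1284 against Ptges, and 159 lower than all 3. Between cells with fewer than 3 mitotic UMIs, 259 were lower against Ifitm1 and 461 against generic cells. With the wildtype TNF Ptges cells, 901 were higher and 446 lower, and 23 lower than all 3.

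The cycling share of the class was 95.5% with a limit of 2 UMIs and 97.3% with 10000 UMIs per cell. That of Progenitor.1 was 44.7% with a limit of 2, 33.5% with 5 and 49.6% with 10000 UMIs. Within 100 bases of the start, TTTGAA was in 23.2% of G2 and M phase promoters, against 5.77% of all promoters. GGAATG was there in 11.4% of contractile promoters, against 4.71% of all. Alternatives chosen after seeing the data were the sets without Acta2-rich cells, which gave 505 genes higher and 78 lower against Ifitm1 cells and 427 and 43 against all 3, the comparison without Ptges cells (475 and 61) and the looser CArG box.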

Other observations

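The 2 cells of the class outside the untreated wildtype library were given by their own counts. The wildtype TNF cell held 35676 UMIs, with 32 S phase and 20 G2 and M phase UMIs per 5000 and 3 mitotic UMIs. It had 0 UMIs of Acta2, Tagln, Tubb6, Adamdec1 and Pitx1, 1 of Cenpf and 1577 of Saa3. The Tnfr2-/- untreated cell held 29608 UMIs, with 26 and 25 UMIs of both phases and 5 mitotic UMIs. It had 6 UMIs of Tubb6, 2 of Pitx1, 1 of Cenpf, 0 of Acta2 and Tagln and 1071 of Saa3. Both were cycling by the mitotic count.

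The wildtype untreated library also held 31 cells without a class. Of these 9 were cycling by the same count, their median depth was 66566 UMIs, and they held a median of 69 epithelial marker UMIs per 5000, against 0 in the class. They entered no comparison.

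Genes of immediate stress and of glycolysis were also counted. Of 14 stress genes 2 were higher than in Ifitm1 cells, Atf3 (22.9 against 7.12 CPM) and the chaperone Hsp90aa1 (688 against 333), and Fos was at 164 against 131. Of 14 glycolysis and hypoxia genes none reached 2-fold, with a median of 0.18. Among 17 targets of SRF and YAP, Ctgf was the 1 that was higher (35.0 against 14.7 CPM), and Cyr61 was at 245 against 262. Of 24 mesenchymal transcription factors 1 was lower, Nr2f1 at 101 against 220, and of 15 matrix proteases and inhibitors 2 were lower, Mmp13 and Adamts2.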
